A study of Rattus norvegicus with 8 samples.

Results

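Complement, its regulators and CD47 were followed through 7 genes, C1s, Cfd, C3, Serping1, Cd55, Cd59 and Cd47, of the 35561 gene names on the array. The genes were chosen for their roles in complement activation, its restraint and the CD47 signal, with earlier results of these data known. They were found by gene name, with the older names Daf1 for Cd55 and Adn or Df for Cfd accepted. Every probe with such a name was kept, which gave 10 of the 41012 probes. C1s, Serping1 and Cd47 had 2 probes each and the other genes 1. For a gene with 2 probes, the reference probe is the one with a RefSeq accession, or the brighter where both have one.

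RNA was measured on 8 single-colour rat whole-genome arrays, 2 for each of 4 groups, and the question was how dying and surviving neurons of the injured hippocampus differ in gene expression. All rats were male Sprague-Dawley, and all neurons came from the CA3 subfield by laser capture from stained frozen sections. Naive rats had no treatment, and sham rats had the sham injury with removal of the brain 24 hours later. The surviving and dying groups came from rats 24 hours after a moderate fluid percussion injury, a model of traumatic brain injury. Dying neurons were those stained by Fluoro-Jade, a marker of degenerating neurons, and surviving neurons were those it left unstained. Each surviving or dying pool held about 600 neurons, taken per the methods from at least 3 rats, so that an array is a pool of animals and the 2 arrays of a group are its replicates. Surviving neurons were taken beside dying ones and so within the same sections, but which rats went into which pool is not given in the sources used here and the fit treats the pools as independent. The labels name 2 amplification kits without saying which sample had which.

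Per the file headers, the naive and sham arrays lay on 1 slide and the surviving and dying arrays on another, which was read with a different protocol of the scanner software. Where sham is the reference, injury and slide therefore cannot be told apart, while surviving against dying and sham against naive were each made within a slide. The median processed signal was 27.2 and 22.7 on the naive arrays, 16.5 and 16.4 on the sham arrays, 52.2 and 48.2 on the surviving arrays, and 19.2 and 52.6 on the dying arrays. Levels below are the log2 of a probe's processed signal over the median of its array, so 0 is the signal of the median probe. Because probes differ in how well they bind, no probe's level is set against that of another. The share of probes well above background ran from 49.2% on sham replicate 2 to 71.5% on surviving replicate 1. The 2 arrays of a group correlated across 15250 probes, which are not independent replicates, with r of 0.966 in naive, 0.985 in sham, 0.976 in surviving and 0.892 in dying neurons. The number of arrays limits the precision of every value.

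Complement is a cascade of plasma and tissue proteins that tags cells and debris for removal and can lyse a membrane. The classical route runs from C1q through the proteases C1r and C1s, the alternative route is amplified by factor D, the product of Cfd, and both converge on the cleavage of C3. Serping1 encodes the C1 inhibitor, which blocks C1r and C1s, Cd55 encodes the decay-accelerating factor, which breaks up the enzymes that cleave C3, and Cd59 encodes the membrane protein that stops assembly of the lytic pore. CD47 on a cell's surface binds SIRPα on phagocytes and restrains engulfment, the signal often called "don't eat me".

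In dying neurons, set against sham neurons, the Serping1 level rose at its reference probe and the levels of Cd59 and Cd47 fell. The Serping1 call was lost without either sham array or dying replicate 1, and the other Serping1 probe showed no call. The Cd59 call was lost without either sham array, with each other scaling or background correction, and with the deposited series table. In surviving neurons set against sham neurons, Cd47 fell at its reference probe, a call lost without any 1 of the 4 arrays compared, while the other Cd47 probe showed no call, so no direction is given for the gene there. Between surviving and dying neurons, and between sham and naive neurons, the level of no member passed the test. Of the 7 genes, 6 had a tested reference probe in each comparison, since Cd55 was dim throughout. A probe was called where the Benjamini-Hochberg adjusted p of the limma test was under 0.05.

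The share of all probes called gives the scale for these counts. In dying against sham neurons, 3 of the 6 tested members were called, 1 higher and 2 lower, where 40.8% of 25623 probes were called, 13.6% higher and 27.2% lower. In surviving against sham neurons, 1 of 6 was called, lower, where 16.3% of 26905 probes were called, 5.78% higher and 10.5% lower. For surviving against dying neurons, 0 of 6 members were called, and limma called 0% of 27391 probes, of which 5639 had an unadjusted p under 0.05. In sham against naive neurons, 0 of 6 were called, with 0% of 20676 probes called by limma and 788 at an unadjusted p under 0.05. The members' shares in both comparisons with sham were therefore near those of the whole array, and nothing particular to the members is read from them.

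The arrays of the 2 groups did not overlap for 4 of the 5 tested members with a value on all 4 arrays between surviving and dying neurons, where 52.0% of such probes did not overlap. The corresponding counts were 2 of 5 members with 76.9% of probes in surviving against sham, 5 of 6 with 76.6% in dying against sham, and 2 of 6 with 43.5% in sham against naive. Serping1, with 1 surviving array, could not be judged where surviving neurons were compared. The median difference of the tested members was 1.23 in dying against sham neurons, beside -0.46 over all probes tested. It was -0.66 beside -0.43 in surviving against sham, -0.41 beside 0.14 in surviving against dying, and 0.43 beside 0.37 in sham against naive. The comparisons with sham share the sham arrays, and surviving and dying neurons each enter more than 1 comparison, so the counts are not independent of each other.

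**Figure D1:**
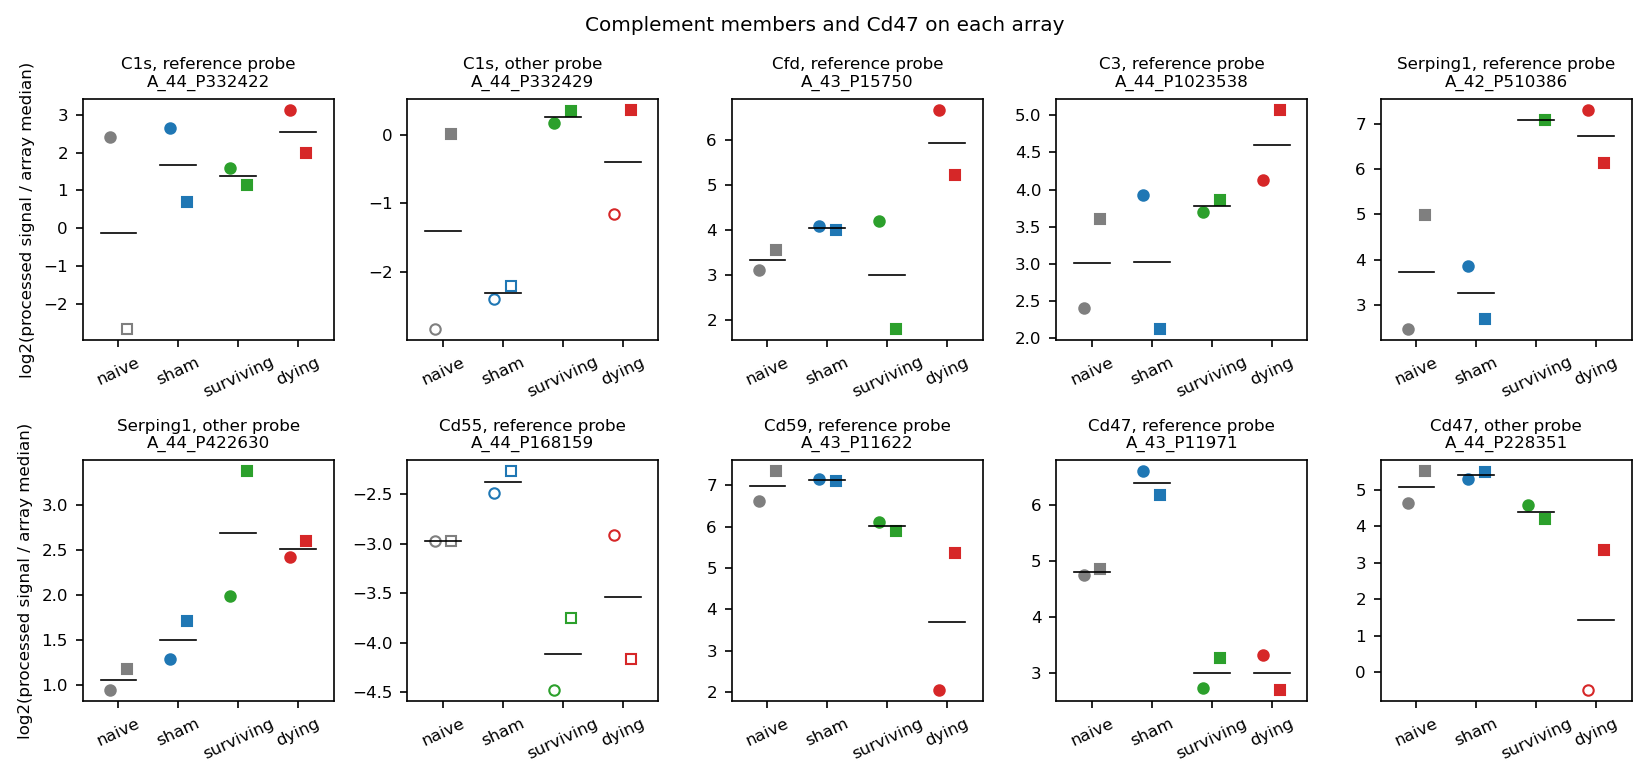
Level of each member probe on each array (y axis, log2 of the processed signal over the array median) by group (x axis), with a circle for replicate 1, a square for replicate 2 and a line for the group mean. Open symbols are arrays on which the probe was not well above background. The Serping1 reference probe lies at 6.15 or more on every surviving and dying array with a value and at 4.99 or less on the naive and sham arrays, and the Cd47 reference probe at 3.31 or less on the surviving and dying arrays and at 4.75 or more on the others.

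C1s is the protease of the classical route that cleaves C4 and C2. Its reference probe, A_44_P332422, had levels of 2.40 and -2.67 on the naive arrays, 2.64 and 0.68 on the sham arrays, 1.60 and 1.15 on the surviving arrays, and 3.13 and 1.98 on the dying arrays. Naive replicate 2 was not well above background, the sham arrays bracketed both surviving arrays, and both dying arrays lay above both surviving arrays. The surviving minus dying difference was -1.17 (SE 1.46, adjusted p = 0.689), and against sham it was -0.28 in surviving neurons (adjusted p = 0.906) and 0.89 in dying neurons (adjusted p = 0.634). The sign against sham rested on single sham arrays, with 0.70 in surviving neurons without sham replicate 1 and -0.09 in dying neurons without sham replicate 2. In surviving neurons it also turned with the scaling, to 0.50 with the 75th percentile and 0.14 with quantile normalization.

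The other C1s probe, A_44_P332429, gave another picture. It was well above background on naive replicate 2, on both surviving arrays and on dying replicate 2, at 0.02, 0.18, 0.35 and 0.37, and on no sham array. Its level in surviving neurons was at least 1.41-fold that in sham neurons and did not pass (adjusted p = 0.0891), although both surviving arrays lay above both sham arrays. The probe entered this test only through the surviving group, where it was high. No size beyond that bound is therefore given, and nothing is read from its passing in other settings. The test passed when either naive array was left out and with the 75th percentile (adjusted p = 0.0375). It also passed with the deposited series table (adjusted p = 0.0481) and with only the arrays of these groups in the fit (adjusted p = 0.00827). It did not pass with the normexp correction. Surviving minus dying was 0.66 at this probe (adjusted p = 0.721), against -1.17 at the reference probe, and -0.10 without dying replicate 1, which was not well above background here. Since sham was not well above background at this probe, its sign against sham is not set against that of the reference probe. No direction is given for the gene.

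Cfd encodes factor D, the protease that cleaves factor B in the alternative route. Its single probe, A_43_P15750, had levels of 3.12 and 3.56 on the naive arrays, 4.09 and 3.99 on the sham arrays, 4.20 and 1.81 on the surviving arrays, and 6.66 and 5.21 on the dying arrays. Both dying arrays lay above every other array, while the surviving arrays stood far apart, with replicate 1 at the height of sham and replicate 2 the lowest of the 8. By group mean and SD the order was dying (5.94, SD 1.02), sham (4.04, SD 0.07), naive (3.34, SD 0.31) and surviving (3.0, SD 1.69), and the surviving arrays spanned those of sham and of naive, so that neither group differed from surviving beyond the spread. The gap to dying neurons was the largest that a tested reference probe of the members showed between surviving and dying neurons.

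The mean Cfd level was 7.64-fold higher in dying than in surviving neurons, a difference of -2.93 for surviving minus dying (SE 0.83, 95% interval -4.85 to -1.02), and it did not pass (adjusted p = 0.14). Without dying replicate 2 the difference was -3.66 and passed (adjusted p = 0.0476). Without surviving replicate 1 or 2 it was -4.13 or -1.74 and did not pass. Against sham, Cfd was 3.72-fold higher in dying neurons, a difference of 1.90 (SE 0.83, adjusted p = 0.0972) with 2 of 2 dying arrays above both sham arrays. That difference passed where another scaling or background correction was used, at 2.62 with the 75th percentile (adjusted p = 0.035), 3.03 with quantile normalization (adjusted p = 0.0379) and 2.25 with the normexp correction (adjusted p = 0.0194). It passed with no single array left out, and ran from 1.17 without dying replicate 1 to 2.62 without dying replicate 2. In surviving neurons the difference from sham was -1.04 (adjusted p = 0.393), and 0.16 without surviving replicate 2.

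C3 is the component on which the routes converge, and its cleavage yields the tag that binds to surfaces. The probe A_44_P1023538 had levels of 2.41 and 3.61 on the naive arrays, 3.93 and 2.12 on the sham arrays, 3.70 and 3.86 on the surviving arrays, and 4.13 and 5.07 on the dying arrays. The dying arrays were the highest of the 8, both surviving arrays lay above both naive arrays, and the sham arrays bracketed the naive and the surviving ones. C3 was 2.99-fold higher in dying than in sham neurons, a difference of 1.58 (SE 0.73) that did not pass (adjusted p = 0.114). It passed at 2.30 with the 75th percentile (adjusted p = 0.0314), 2.53 with quantile normalization (adjusted p = 0.0281) and 1.88 with the normexp correction (adjusted p = 0.0468). With single arrays left out it ran from 0.67 without sham replicate 2 to 2.48 without sham replicate 1, and passed in none of these fits. Surviving minus dying was -0.82 (SE 0.73, adjusted p = 0.556), and surviving minus sham was 0.75 (adjusted p = 0.483), which turned to -0.15 without sham replicate 2.

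Serping1 encodes the inhibitor of the classical proteases. The reference probe, A_42_P510386, had levels of 2.47 and 4.99 on the naive arrays, 3.86 and 2.69 on the sham arrays, 7.09 on surviving replicate 2, and 7.31 and 6.15 on the dying arrays. The spot of surviving replicate 1 was marked as non-uniform and left out, so the surviving group rests on 1 array for this probe, whose spread is taken from the remaining groups. With that spot kept, surviving replicate 1 was at 6.18, and every surviving and dying array lay above every naive and sham array. In this bulk material, a change in how many cells of a type were captured and a change in RNA per cell cannot be told apart.

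Serping1 rose 11-fold in dying against sham neurons, by 3.46 (SE 0.93, 95% interval 1.26 to 5.65, adjusted p = 0.0256), with 2 of 2 dying arrays above both sham arrays. The call was lost without sham replicate 1 (4.04, adjusted p = 0.0763), without sham replicate 2 (2.87, adjusted p = 0.124) and without dying replicate 1 (2.87, adjusted p = 0.132), and it held without dying replicate 2. In surviving neurons the difference from sham was 3.82 (SE 1.14) and did not pass (adjusted p = 0.0616). With all spots kept it was 3.37 and passed (adjusted p = 0.0464), and it also passed when either naive array was left out (adjusted p = 0.0349). The surviving minus dying difference was 0.36 (95% interval -2.33 to 3.05, adjusted p = 0.889).

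The other Serping1 probe, A_44_P422630, was well above background on all 8 arrays, at 0.94 and 1.18 in naive, 1.30 and 1.71 in sham, 2.0 and 3.37 in surviving pools, and 2.43 and 2.61 in dying pools. Every surviving and dying array lay above every naive and sham array, with surviving replicate 2 the highest. The differences from sham were smaller than at the reference probe and did not pass, at 1.01 in dying neurons (SE 0.56, adjusted p = 0.173) and 1.18 in surviving neurons (SE 0.56, adjusted p = 0.173). In dying neurons it passed at 1.74 with the 75th percentile (adjusted p = 0.0445) and at 1.81 with the deposited series table (adjusted p = 0.0345), which also gave 2.06 in surviving neurons (adjusted p = 0.0395). It did not pass in dying neurons with quantile normalization (1.47, adjusted p = 0.089) or the normexp correction (0.67, adjusted p = 0.24), nor with any single array left out. The difference in surviving neurons was 0.49 without surviving replicate 2 and 1.87 without surviving replicate 1. The mean over both probes gave 2.23 in dying against sham neurons (adjusted p = 0.0268). In surviving neurons that mean exists on replicate 2 alone, the higher array at the other probe, and its difference of 2.84 from sham (adjusted p = 0.0456) rests on that array. The probes thus share a direction and differ in size.

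Cd55, listed on the array under its older name Daf1, was below the scanner's mark for signals well above background on all 8 arrays, at levels from -4.48 on surviving replicate 1 to -2.27 on sham replicate 2. Its probe, A_44_P168159, is therefore given no fold and no test. Of the membrane regulators of complement among the members, Cd59 is then the only one with values to compare.

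Cd59 encodes the membrane protein that keeps the lytic pore from forming. Its probe, A_43_P11622, had levels of 6.63 and 7.34 on the naive arrays, 7.16 and 7.11 on the sham arrays, 6.12 and 5.90 on the surviving arrays, and 2.03 and 5.35 on the dying arrays. Naive and sham arrays overlapped, both surviving arrays were lower than these, and both dying arrays were lower still, dying replicate 1 by far. The 2 dying arrays differed by 3.32, against 0.22 for the surviving and 0.05 for the sham arrays.

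Cd59 fell in dying against sham neurons by 3.44 (SE 0.95, 95% interval -5.65 to -1.24), a 10.9-fold lower mean (adjusted p = 0.0244), with 2 of 2 dying arrays below both sham arrays. Without dying replicate 1 the difference was -1.78, without dying replicate 2 it was -5.10, and both still passed. The call was lost without sham replicate 1 (-3.42, adjusted p = 0.11) and without sham replicate 2 (-3.47, adjusted p = 0.0906). It was also lost with the 75th percentile (-2.72, adjusted p = 0.0641), quantile normalization (-2.43, adjusted p = 0.15), the normexp correction (-2.41, adjusted p = 0.095) and the values of the deposited series table (-2.64, adjusted p = 0.0799).

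Set against the dying, the surviving neurons had Cd59 4.98-fold higher, a difference of 2.32 (SE 0.95, 95% interval 0.11 to 4.52) that did not pass (adjusted p = 0.225). Leaving out dying replicate 2 made it 3.98 with an adjusted p of 0.0149, and leaving out dying replicate 1 made it 0.66, so its size was set by the dying array used. In surviving against sham neurons the difference was -1.13 (SE 0.95, adjusted p = 0.422). It was nearer 0 under other scalings, and passed where only the arrays of these groups were in the fit (adjusted p = 0.0477).

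Cd47 encodes the ligand of SIRPα. Its reference probe, A_43_P11971, had levels of 4.75 and 4.86 on the naive arrays, 6.61 and 6.19 on the sham arrays, 2.73 and 3.26 on the surviving arrays, and 3.31 and 2.68 on the dying arrays. Sham was the highest group and naive the next, with no overlap, and the surviving and dying arrays overlapped each other below all of these. The order by mean was sham (6.40, SD 0.29), naive (4.81, SD 0.08), dying (3.0, SD 0.45) and surviving (2.99, SD 0.38), of which dying and surviving did not differ beyond their spread.

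Cd47 at this probe fell by 3.40 in dying against sham neurons (SE 0.49, adjusted p = 0.00344), a 10.6-fold lower mean with 2 of 2 dying arrays below both sham arrays. The fall in surviving against sham neurons was also by 3.40 (SE 0.49, adjusted p = 0.00724), again 10.6-fold and again on 2 of 2 arrays. The call in dying neurons held with any single array left out, with adjusted p-values from 0.00523 to 0.0454. The call in surviving neurons was lost without sham replicate 1 (-3.20, adjusted p = 0.092), sham replicate 2 (-3.61, adjusted p = 0.0584), surviving replicate 1 (-3.14, adjusted p = 0.0672) or surviving replicate 2 (-3.67, adjusted p = 0.0532). Both falls were larger than the medians of -0.46 and -0.43 over all probes tested in these comparisons. Surviving minus dying was close to 0, with a 95% interval from -1.12 to 1.12 (adjusted p = 0.999), and sham minus naive was 1.59 (SE 0.49, adjusted p = 0.93).

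The other Cd47 probe, A_44_P228351, gave 4.63 and 5.51 in naive, 5.29 and 5.50 in sham, 4.59 and 4.21 in surviving pools, and -0.50 and 3.35 in dying pools. Dying replicate 1 was not well above background there, and the surviving arrays lay just under the naive ones. With dying replicate 1 taken at its own signal, mean Cd47 at this probe was 15.7-fold lower in dying than in sham neurons (-3.97, SE 1.08, adjusted p = 0.0233). Without dying replicate 1 that difference was -2.04 and still passed (adjusted p = 0.0391). It did not pass without sham replicate 1 (-4.07, adjusted p = 0.0985) or sham replicate 2 (-3.86, adjusted p = 0.0924), nor with the 75th percentile (-3.24, adjusted p = 0.0565), quantile normalization (-3.05, adjusted p = 0.121), the normexp correction (-2.13, adjusted p = 0.0615) or the deposited series table (-3.17, adjusted p = 0.0691).

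The probes of Cd47 disagree on surviving neurons. At the other probe the surviving minus sham difference was -0.99 (SE 1.08, adjusted p = 0.536), and it changed sign to 0.02 with quantile normalization and to 0.03 with the normexp correction. There the mean surviving level was 7.88-fold the dying level, with dying replicate 1 taken at its own signal. This difference of 2.98 did not pass (SE 1.08, adjusted p = 0.189), whereas the reference probe had the same mean in both groups. The difference between the probes was not tested. Without dying replicate 1, the surviving minus dying difference there was 1.05 and did not pass (adjusted p = 0.435). Without dying replicate 2 it passed (adjusted p = 0.0138), but the dying group is then the 1 array not well above background, so no size is given. The mean over both probes fell by 2.20 in surviving against sham neurons (adjusted p = 0.0447) and by 3.69 in dying against sham neurons (adjusted p = 0.00472).

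**Figure D2:**
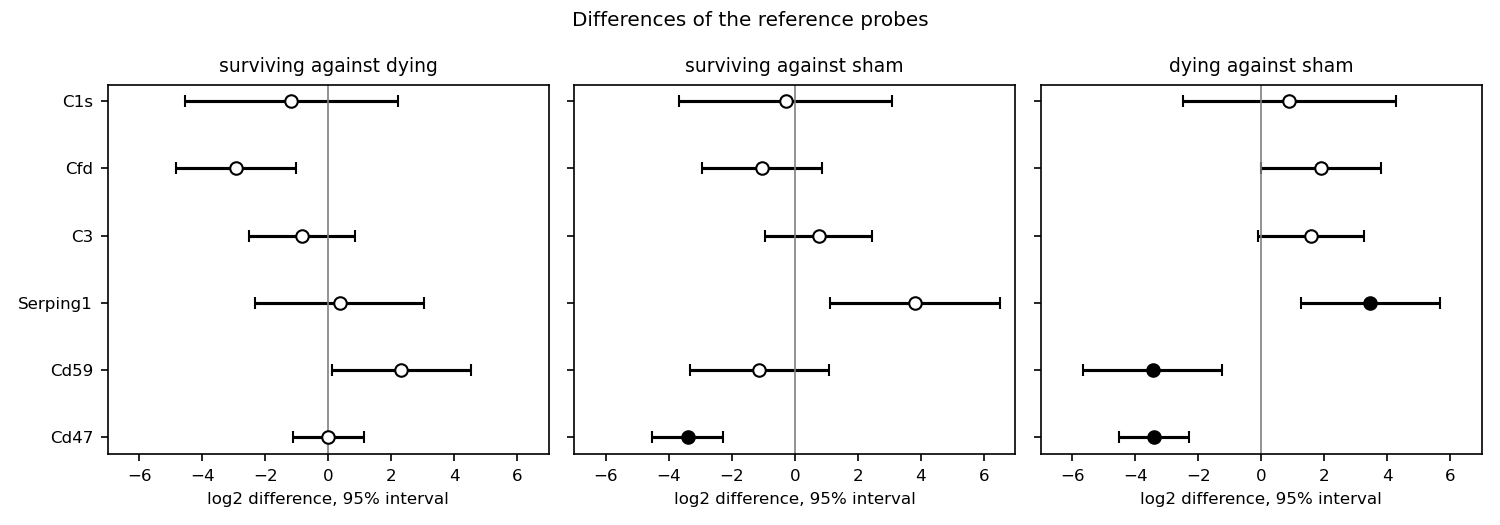
Difference of each tested reference probe (x axis, log2 of the first group over the second, with its 95% interval) between surviving and dying neurons and for each of these against sham neurons, filled where the adjusted p passed 0.05. Cd47 lies at -3.40 in both comparisons with sham and at 0 between surviving and dying neurons. Serping1 and Cd59 lie on opposite sides of 0 in dying against sham neurons, at 3.46 and -3.44. There the Cd59 call was lost with 3 other scalings or background corrections, with the deposited table and without either sham array. The Serping1 call was lost without either sham array or dying replicate 1.

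All 7 members were matched in the RefSeq gene table of the rat assembly GRCr8, Cd59 by synonym as Cd59b, and promoters were available for Cd47, Cfd, C3 and Cd55. The sequences of Cd47, whose reference probe was called in both comparisons with sham, and of Cfd, which had the largest gap between dying and surviving neurons among tested reference probes, are given 5′ to 3′ on the minus strand, from 250 bases before to 50 after the start of the gene. The Cd47 promoter is chr11:64438139-64438438 and the Cfd promoter chr7:10465447-10465746. Capitals mark GGGCGG, the GC box, on either strand, which is found 3 times in Cd47 and 1 time in Cfd, there as its reverse complement.
Cd47: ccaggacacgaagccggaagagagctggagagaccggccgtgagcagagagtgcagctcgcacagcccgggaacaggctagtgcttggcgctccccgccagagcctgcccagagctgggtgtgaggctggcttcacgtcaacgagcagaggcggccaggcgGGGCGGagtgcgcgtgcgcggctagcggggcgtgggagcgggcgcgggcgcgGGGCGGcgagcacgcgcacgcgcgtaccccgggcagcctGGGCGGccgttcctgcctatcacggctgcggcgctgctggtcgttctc
Cfd: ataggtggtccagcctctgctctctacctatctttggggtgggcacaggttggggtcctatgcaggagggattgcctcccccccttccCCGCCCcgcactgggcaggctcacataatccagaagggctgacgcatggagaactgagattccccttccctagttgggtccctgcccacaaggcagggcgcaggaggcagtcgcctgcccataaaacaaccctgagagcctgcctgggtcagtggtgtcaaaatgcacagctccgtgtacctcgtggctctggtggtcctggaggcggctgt

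Of the 4 promoters, 3 held GGGCGG on either strand, the C3 promoter being the one without it, beside 33.1% of 33469 RefSeq promoters of the same length. The letters TTCNNNGAA, the core of STAT sites, were in 0 of the 4, beside 8.87% of all promoters, CCAAT in 0 beside 37.5%, and TATAAA in 0 beside 14.2%. The GC content was 73.3% for Cd47 and 61.3% for Cfd, beside a median of 51.7%. These are matches of letters, and their part in the levels was not tested.

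A filter was adapted from that of the methods. It keeps a probe well above background on all 4 arrays compared, with replicates within 1.5-fold of each other and a change over 2-fold. The methods ask for signal above background and for 2-fold changes of surviving or dying neurons relative to sham. Its use on surviving against dying and on sham against naive neurons, and the mark of well above background, were chosen here. The shares are of probes well above background on all 4 arrays. Of the 10 member probes, 6 were so between surviving and dying neurons and 0 of these passed, where 4.94% of 21253 probes did. In surviving against sham neurons the reference probes of Cd47 and Cd59 passed, 2 of 7, beside 26.6% of 18171 probes, and in dying against sham neurons the other Serping1 probe passed, 1 of 7, beside 18.5% of 16180. In sham against naive neurons the Cd47 reference probe passed, 1 of 7, beside 2.15% of 18016. The reference probes of Serping1, Cd59 and Cd47, called by limma in dying against sham neurons, did not pass there, since their replicates lay further apart than this filter allows.

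The other genes of the complement pathway were read from a list of 40, of which 37 had a probe and C4b, Itgax and Vsig4 had none. Among the 15 of them well above background on all 4 arrays of dying and sham neurons, C1qa, C1qb, C1qc and Cd93 rose in dying neurons and 0 fell, beside 4.15% and 30.0% of the 16180 probes that met this filter, and the median difference was 0.93 beside -0.90. Among 15 such genes in surviving against sham neurons 0 rose and 0 fell by limma, beside 0.550% and 9.25% of 18171 probes, with a median of 0.04 beside -0.82. The wider filter used for the members asks for this mark on both arrays of either group, and so lets a gene in through the group where it is high. By it Mbl1, C3ar1, C5ar1, C4bpb and C8b also rose in dying neurons, 9 of 23 tested in all, and C3ar1, C5ar1 and Mbl1 rose among 28 in surviving neurons. Of these 5 genes, C8b was well above background on 1 sham array and the others on none, so the counts of 9 and 3 are not set against those of the array. With no filter at all, 8 of 37 rose in dying and 3 of 37 in surviving against sham neurons, beside 6.94% and 3.31% of all probes. Of the genes named, C4bpb alone no longer passed (adjusted p = 0.064). The C1q chains are the recognition unit of the classical route, Mbl1 is a lectin that starts the cascade, C3ar1 and C5ar1 are receptors, C4bpb is part of a fluid regulator and C8b a component of the pore. Between surviving and dying neurons 0 of 28 were called by limma and 0 of 17 in sham against naive. The former had a median of -0.71 beside 0.14. Of the 27 genes with a value on all 4 arrays there, 11 had surviving arrays wholly below the dying arrays and 1 wholly above, beside 52.0% of all probes without overlap.

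Within the classical route, the C1q chains engage C1r and C1s. C1qb had levels of 4.98 and 6.07 in naive, 6.34 and 6.06 in sham, 6.57 and 7.03 in surviving pools, and 9.82 and 8.78 in dying pools. C1qa had 5.86 and 6.97, 6.89 and 6.76, 6.74 and 6.99, and 8.88 and 8.55 in the same order. In all 3 chains both dying arrays stood above the other 6. Against sham they rose in dying neurons 3.71-fold for C1qa (adjusted p = 0.0238), 8.58-fold for C1qb (adjusted p = 0.00704) and 5.2-fold for C1qc (adjusted p = 0.0158). Surviving minus dying was -1.85 (adjusted p = 0.14), -2.50 (adjusted p = 0.128) and -1.65 (adjusted p = 0.177) in that order, none of which passed.

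Among the receptors, C5ar1, which binds the fragment C5a, was well above background on no naive or sham array, at 1.86 and 1.87 on the surviving arrays and at 4.29 and 3.54 on the dying arrays. Relative to sham neurons it was higher by at least 17.6-fold in dying (adjusted p = 0.00187) and by at least 4.25-fold in surviving pools (adjusted p = 0.0206). C3ar1, the receptor of C3a, was at least 2.08-fold and 2.65-fold higher in dying (adjusted p = 0.0292) and surviving neurons (adjusted p = 0.0362), and the lectin Mbl1 at least 1.46-fold and 1.31-fold (adjusted p = 0.00679 and 0.0192), each on 2 of 2 arrays. With the normexp correction the calls of C3ar1 and Mbl1 were lost. Cd93 rose 7.99-fold in dying against sham neurons (adjusted p = 0.00704), C8b was at least 4.55-fold higher (adjusted p = 0.0238) and C4bpb at least 3-fold higher (adjusted p = 0.0477). C5ar1, C3ar1, Mbl1, C8b and C4bpb entered these tests only through the injured groups, where they were high, so nothing is read from their passing. Of the chains of the C3 receptors, Itgam was at least 2.65-fold higher in dying neurons (adjusted p = 0.117), Itgb2 had a difference of 1.48 (adjusted p = 0.051), and Cr2 was not well above background on any array.

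These pathway calls leaned on single arrays. Of the 9 genes called in dying against sham neurons, C5ar1 and Cd93 were still called without sham replicate 1, and C5ar1 and Mbl1 without sham replicate 2. Without dying replicate 1, C1qb, C3ar1, C5ar1, Cd93 and Mbl1 were, and without dying replicate 2 all but C3ar1. C4bpb was lost without either naive or either surviving array, and C3ar1 without either surviving array. C4bpb was also lost with the replicate block (adjusted p = 0.0717), with all spots kept (adjusted p = 0.0535) and with only the arrays of these groups in the fit (adjusted p = 0.0803), and the replicate block lost the call of C3ar1 in surviving against sham neurons too (adjusted p = 0.0543). In surviving against sham neurons, all 3 calls were lost without either sham or either surviving array, with adjusted p-values from 0.094 to 0.182. Over the other settings, 4 to 14 genes rose and 0 fell in dying against sham neurons. The share of all probes that rose there ran from 4.15% with the filter on all 4 arrays to 28.2% with the deposited table. In surviving against sham neurons 0 to 10 rose, and the share of all probes ran from 0.55% to 16.2% with the same settings. Genes fell there with quantile normalization (1), a floor of 0.1 (2) and only the arrays of these groups in the fit (4). In these settings 6.16%, 13.8% and 24% of all probes fell. The counts that rose came from the wider filter, except with the filter on all 4 arrays and with no filter. Those from the wider filter are not set against the shares of the array.

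Where fewer genes passed, those next by p were, in surviving against sham neurons, Vtn with a difference of -2.01 (adjusted p = 0.0508), Fcna with -1.39 (adjusted p = 0.0705) and Cr1l with -1.35 (adjusted p = 0.111). Cr1l encodes the rodent membrane regulator Crry, which acts beside Cd55 and Cd59, and had levels of 6.83 and 7.76 in naive, 7.95 and 7.52 in sham, 6.48 and 6.30 in surviving pools, and 6.90 and 6.24 in dying pools. Between surviving and dying neurons, C5ar1 had -2.05 (adjusted p = 0.134), Cd93 -2.21 (adjusted p = 0.134) and Cfb, the partner of factor D, -1.74 (adjusted p = 0.239). In sham against naive neurons, C1r, C2, C8g, Fcna, Itgb2 and Sirpa came next, with differences from -0.35 for C8g to 1.16 for C1r and an adjusted p of 0.93 or more.

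Of 5 receptors and ligands of CD47, 0 were called by limma in any comparison at the median scaling, with 2 tested between surviving and dying neurons, 2 in dying and 1 in surviving against sham neurons, and 3 in sham against naive. Their medians in that order were -1.53, 0.88, -0.86 and -1.84, beside 0.14, -0.46, -0.43 and 0.37 over all probes. Sirpa, the receptor that reads CD47, had levels of 10.52 and 11.06 in naive, 11.47 and 11.10 in sham, 10.76 and 10.09 in surviving pools, and 10.30 and 10.11 in dying pools. Its surviving and dying arrays overlapped, and both groups lay below sham at the median scaling. The differences from sham were -1.08 in dying (adjusted p = 0.107) and -0.86 in surviving neurons (adjusted p = 0.237). In dying neurons it shrank to -0.35 with the 75th percentile, -0.24 with quantile normalization, -0.47 with the normexp correction and -0.28 with the deposited table. In surviving neurons it became -0.08, -0.19, 0.17 and 0.02 in that order, so the place of these neurons below sham depended on the scaling. Thbs1, a secreted ligand of CD47, was not well above background on any array. Thbs2, well above background on 1 of the 2 sham arrays, was at least 3.25-fold higher in dying than in sham neurons and did not pass (adjusted p = 0.0544). It passed with 3 other settings and with no single array left out, where its adjusted p rose to 0.289 without sham replicate 2.

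**Figure D3:**
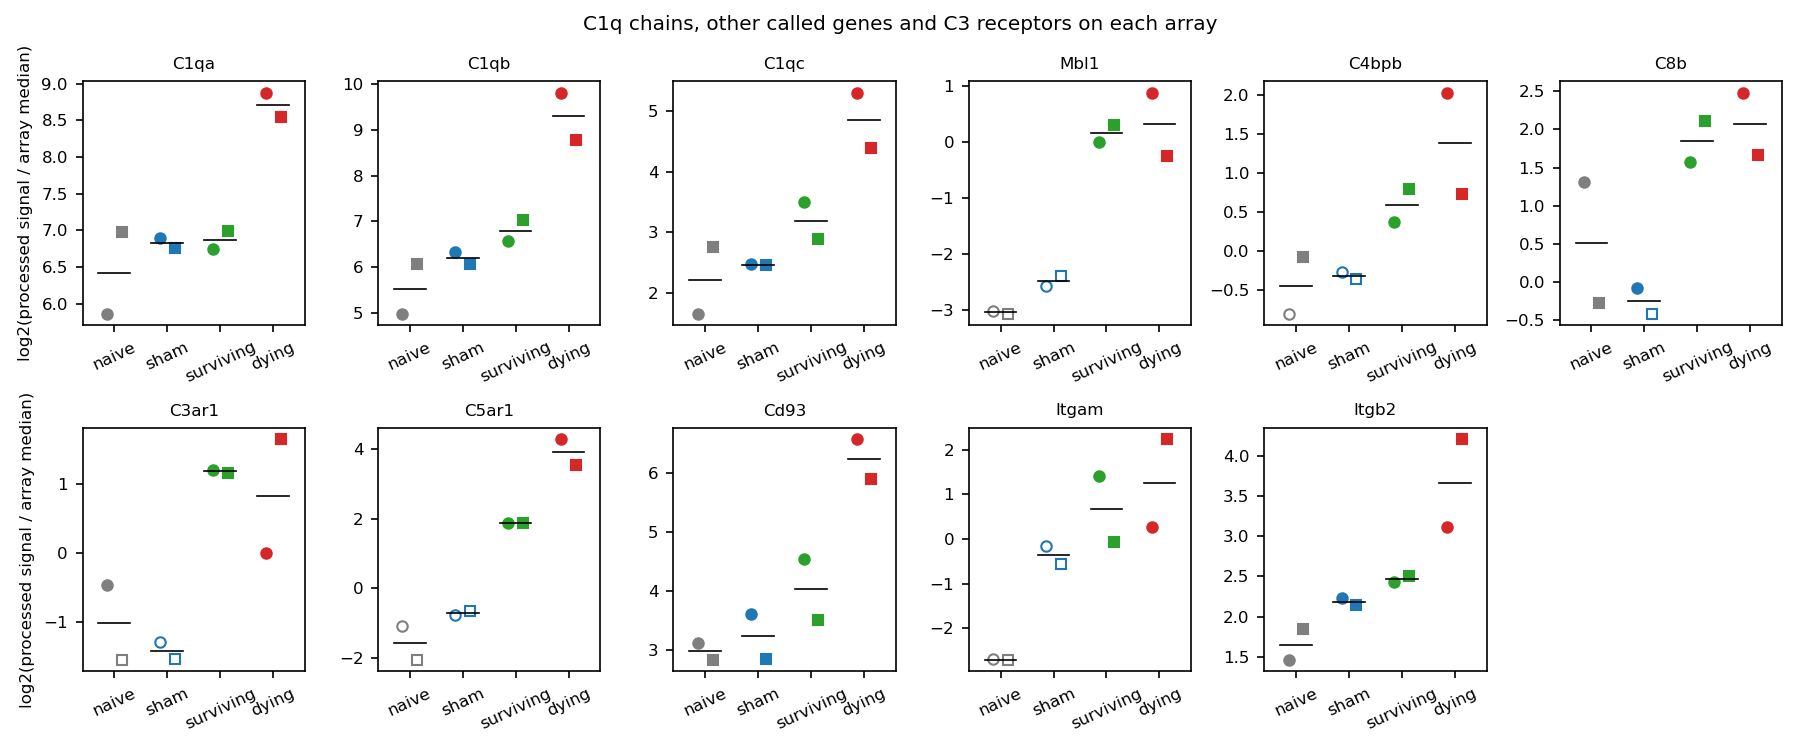
Level of the C1q chains, the other pathway genes called against sham and the integrin chains of the C3 receptors on each array (y axis, log2 of the processed signal over the array median) by group (x axis), with circles for replicate 1, squares for replicate 2, open symbols where the probe was not well above background, and lines for group means. For C1qa, C1qb, C1qc, C5ar1 and Cd93, both dying arrays lie above every other array.

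Genes whose levels ran most like those of a member over the 8 arrays were sought among 9450 probes with a RefSeq accession that were well above background on every array. For Cd47 these were RGD1560047_predicted (r = 0.995), Dmxl1_predicted (r = 0.995) and Trim39 (r = 0.993). For Cd59 they were RGD1306954 (r = 0.997), LOC501473 (r = 0.995) and LOC363337 (r = 0.994), each with its lowest level on dying replicate 1. Cfd was nearest to Bmp1 (r = 0.976), Tec (r = 0.959) and MGC95210 (r = 0.958), and C3 to Pold4 (r = 0.958), RT1-Db1 (r = 0.946) and Clcf1 (r = 0.938). The 8 points share slide and array scaling, and r is given as a description.

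Markers of other cell types moved with several of these results. The scale for their counts is that of all probes tested, of which 13.6% rose and 27.2% fell in dying against sham neurons with a median of -0.46, and 5.78% rose and 10.5% fell in surviving against sham neurons with a median of -0.43. With the 75th percentile these were 26% and 17.2% with a median of 0.26, and 14.3% and 4.84% with a median of 0.36. Quantile normalization gave 20.3% and 15.9% in dying and 8.82% and 6.16% in surviving against sham neurons. The normexp correction gave 14.6% and 18.4%, then 7.98% and 5.84%, in the same order. The deposited table gave 28.2% and 16.4%, then 16.2% and 5.15%. The sums below add scaled signals of different probes, so the probe that gives the largest part of a sum is its brightest and need not be that of the most abundant RNA.

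Of 12 microglia and macrophage markers, 11 had a probe and 8 were well above background on all 8 arrays. The summed scaled signal of 10 was 104 and 193 in naive, 159 and 146 in sham, 166 and 171 in surviving pools, and 1250 and 503 in dying pools. Laptm5 was not in the sum, since its spots were marked non-uniform on both dying arrays, and had levels from 5.99 to 6.91 on the other 6. The largest part came from the Ctss probe in naive and sham pools, from Tyrobp on surviving replicate 1 and from Trem2 on surviving replicate 2 and the dying arrays, and without that part the dying sums were 658 and 306 and the others 129 or less. In dying against sham neurons 4 of 8 tested rose and 0 fell, with a median of 1.33, and 4 to 6 rose with the other scalings, the normexp correction and the deposited table. In surviving against sham neurons 0 of 10 rose and 1, Ctss, fell, with a median of 0.05. There 2 rose and 0 fell with the 75th percentile (median 0.83), with quantile normalization and with the deposited table (median 0.93), and 3 rose and 0 fell with the normexp correction. The microglial sum was thus highest on the dying arrays, dying replicate 1 above all, as were the levels of Cfd and the C1q chains. C3 was instead highest on dying replicate 2, at 5.07 beside 4.13 on dying replicate 1. The Serping1 reference probe, at 7.09 on surviving replicate 2, lay there between the dying arrays, at 7.31 and 6.15. The part of the microglial sum in the levels of Cfd, C3, Serping1 and the C1q chains was not tested.

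The summed signal of 8 endothelial markers was 58.1 and 88.5 in naive, 97.1 and 79.9 in sham, 65.9 and 64 in surviving pools, and 266 and 139 in dying pools. Of the 9 genes listed, 4 passed the background mark on all 8 arrays and Tek on none, and Flt1 was not summed for want of a value on naive replicate 1. Vwf gave the largest part of the sums of surviving and dying pools, Cldn5 of that of naive replicate 2 and Kdr of the others. Among the 4 genes past that mark on all 4 arrays compared, 1, Vwf, rose in dying and 0 in surviving against sham neurons, with 0 falling and medians of 0.78 and -0.50. Flt1 and Eng, past the mark on no sham array, also rose in dying neurons and Flt1 in surviving neurons.

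For 9 markers of neutrophils and lymphocytes, of which 1, Cd3d, passed that mark on all 8 arrays, the sums were 10.4 and 9.29 in naive pools, 9.51 and 9.23 in sham pools, 16.4 on each surviving array, and 46.4 and 38 in dying pools, with the largest part from the Cd3d probe. Cd3d rose in dying neurons, as did S100a8 and Ccr7, which were past the mark on no sham array. Cd3d, the only one past the mark in both surviving and sham neurons, had a difference of 0.92 there that did not pass (adjusted p = 0.208). Endothelium and blood cells also express complement genes, and the part of either list in the members' levels was not tested.

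Other lists ran differently. The 9 oligodendrocyte markers, 7 of them past the background mark on all 8 arrays and Ugt8 on none, had 8 tested, of which 3 fell in surviving and 4 in dying against sham neurons and 0 rose, with medians of -1.51 and -1.55, and the Cd47 reference probe was likewise lower in both groups. With other scalings, the normexp correction or the deposited table, 2 or 3 fell in surviving and 2 in dying neurons. The 10 astrocyte markers, of which 9 were well above background on all 8 arrays, summed to 1060 and 1280 in naive, 1810 and 1200 in sham, 672 and 695 in surviving pools, and 1320 and 654 in dying pools, with 49.7% to 71.6% from the Slc1a3 probe. Of 9 tested, 2 fell in surviving and 3 in dying against sham neurons and 0 rose, with medians of -1.0 and -0.77, which became -0.22 and -0.04 with the 75th percentile. Their share that fell in dying neurons, 3 of 9, was near that of the whole array. The part of the oligodendrocyte and astrocyte lists in the levels of Cd47 and Cd59 was not tested.

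Pyramidal neuron markers were read as a check of the labelled cell type. Of 11 genes, 8 had a probe, and these were all well above background on 7 of the 8 arrays, with 6 of 8 so on dying replicate 1. They summed to 5770 and 8210 in naive, 10900 and 9390 in sham, 5990 and 5840 in surviving pools, and 3040 and 3240 in dying pools. The Nrgn probe gave 79% to 97.2% of each sum, so that the sum is in the main that of 1 probe, lowest on the dying arrays. Without Nrgn the sums were 1120 and 1540 in naive, 2270 and 1650 in sham, 717 and 311 in surviving pools, and 84.7 and 334 in dying pools, and those of surviving and dying neurons overlapped. Of 8 tested, 3 fell in dying and 1 in surviving against sham neurons and 0 rose, with medians of -2.51 and -0.44, of which the latter count and median are near those of the whole array. In dying neurons 1 fell with each other scaling, the normexp correction and the deposited table. Fewer fell without either sham array or without dying replicate 1, and more without dying replicate 2. The share of all probes that fell moved the same way in each of these fits. By group mean all 8 were higher in surviving than in dying neurons without a call, with a median of 1.47, which was 0.48 without dying replicate 1 and 2.59 without dying replicate 2. The size thus rested on dying replicate 1, and on dying replicate 2 Slc17a7, at 2.31, lay above both surviving arrays, at 1.90 and 1.88. Cd59 too was lowest on the dying arrays, and the part of these markers in its level was not tested.

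Between surviving and dying neurons and between sham and naive neurons, limma called 0 genes of any list at the median scaling, with 5639 and 788 probes of the whole array at an unadjusted p under 0.05. With the normexp correction, which called 4.27% of probes higher and 3.36% lower in surviving than in dying neurons, 3 of 28 complement genes were lower, as were 4 of 9 microglial, 2 of 7 endothelial, 1 of 9 astrocyte and 1 of 5 neutrophil and lymphocyte markers, and 1 of 8 pyramidal markers was higher. Without dying replicate 2, with 10.4% higher and 8.69% lower, 5 of 27 complement genes were lower there, as were 3 of 9 microglial, 2 of 8 endothelial, 1 of 9 astrocyte, 1 of 8 oligodendrocyte and 1 of 5 neutrophil and lymphocyte markers, and 4 of 8 pyramidal markers were higher. In surviving minus dying and sham minus naive, the medians were -1.71 and 0.39 for microglia, -0.83 and 0.44 for endothelium, -1.01 and 0.59 for neutrophils and lymphocytes, 0.08 and 0.34 for oligodendrocytes, and -0.16 and 0.42 for astrocytes. The sham minus naive median of the pyramidal markers was 0.49.

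**Figure D4:**
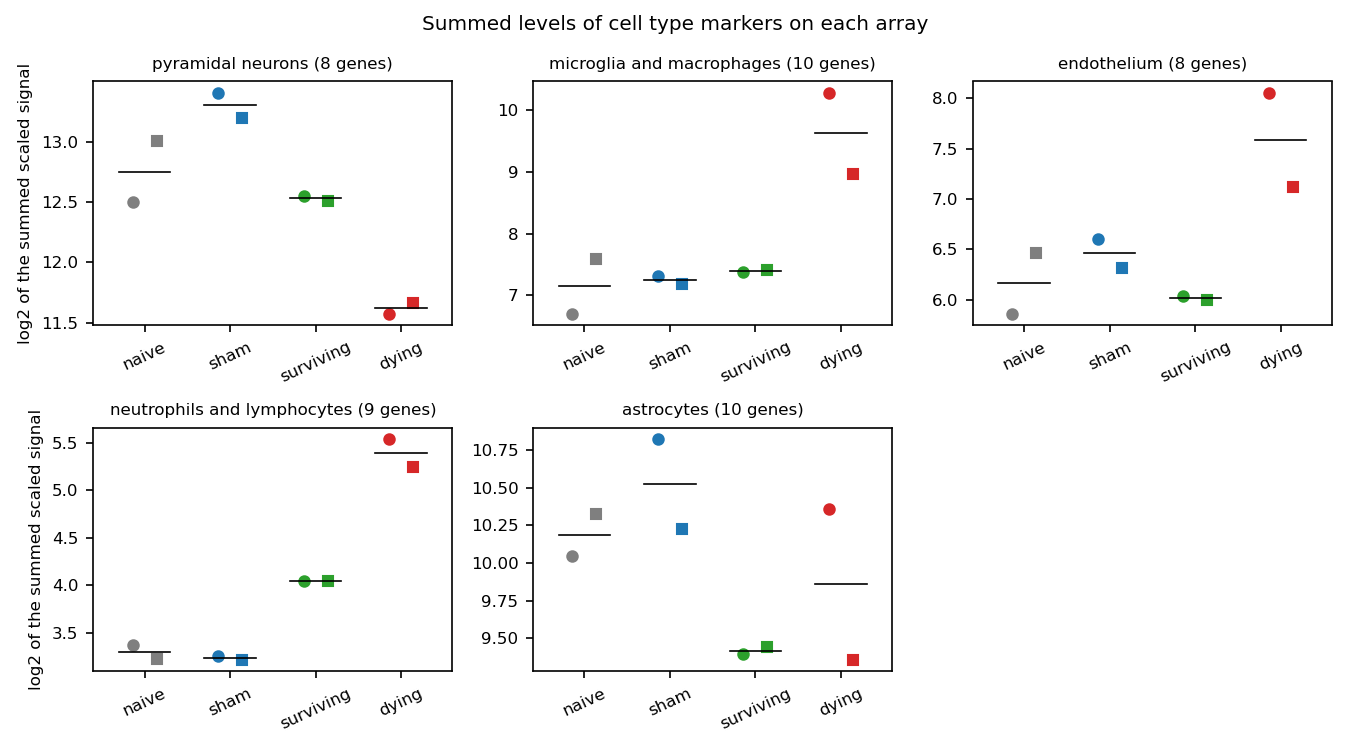
Log2 of the summed scaled signal of the probes of 5 marker lists on each array (y axis) by group (x axis), with circles for replicate 1, squares for replicate 2 and lines for group means. The microglial and endothelial sums are highest on the 2 dying arrays and the pyramidal sums, of which the Nrgn probe gave 79% or more, are lowest on the dying arrays.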

How the data were processed

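The members and gene lists were chosen with earlier results of these data known. Per the file headers, the authors used Agilent Feature Extraction 9.1.3.1 to turn each spot's intensity into a processed intensity, corrected for background and trends and not scaled between arrays. The deposited files also hold the mean intensity of each spot and the median intensity of its local background, and marks for spots well above background, non-uniform or saturated. The signal in the deposited series table is the processed signal divided by 1 constant per array, as found by comparing the files. Its column medians are 0.217 and 0.149 for naive, 0.131 and 0.149 for sham, 0.256 and 0.259 for surviving, and 0.212 and 0.282 for dying pools, so it does not have the median over all probes set to 1, although the methods describe scaling of each array to its 50th percentile.

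Spots marked non-uniform were left out, spots of a probe averaged, each array divided by its median over 41012 probes, values under 0.01 set to 0.01 and the log2 taken. The 8 arrays were fitted together with limma 3.58.1 in R 4.3.3, with group as the only term, after tests on simulated data. A probe was tested where either group compared had it well above background on both its arrays, two-sided, with Benjamini-Hochberg adjustment over all of them and a threshold of 0.05. A probe without a value on an array was fitted on the others. Where a group was not well above background, the fold is a bound, from the lowest signal well above background on its arrays or the probe's own where higher. Pools of rats are the replicates.

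Named are all members, list genes past the threshold, those with the smallest p up to 6 a comparison where fewer passed and the arrays did not overlap, and always the C1q chains, C3 receptors, Sirpa and Thbs1, and the 3 probes most like each member that was well above background on all 8 arrays. Lists were the complement pathway, partners of CD47, and markers of microglia and macrophages, astrocytes, oligodendrocytes, endothelium, neutrophils and lymphocytes, and pyramidal neurons. Promoters came from RefSeq for GRCr8. Alternatives covered scaling, background, spots, filter, floor, the series table, arrays in the fit, a replicate block, the mean over probes, the filter adapted from the methods and each array left out. Figures were drawn with matplotlib 3.10.9 in Python 3.11.15.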

Additional observations from a re-analysis of the deposited data

Results flagged for a closer look

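For C1s, both surviving arrays lay below the mean of the sham arrays and both dying arrays above it, with the surviving and dying means 1.17 apart on the log2 scale. Neither difference from sham passed (-0.28 in surviving neurons, limma adjusted p = 0.906, and 0.89 in dying neurons, adjusted p = 0.634), nor did that between surviving and dying neurons (-1.17, adjusted p = 0.689). The surviving minus sham difference turned positive with quantile normalization (0.14), the 75th percentile (0.50), the deposited table (0.60), the normexp correction (0.28) and without sham replicate 1 (0.70), so no direction from sham is given. Surviving minus dying ran from -1.75 to -0.60 with single arrays left out and was -0.26 for the mean over both probes, and the other probe gave 0.66 (adjusted p = 0.721). The sham arrays themselves, at 2.64 and 0.68, lay on either side of both surviving arrays.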

How the results depend on the processing

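Over 329 recomputed differences of 18 results on reference probes, 309 kept their direction and 276 also their side of the threshold, and the cause was not tested for any of the others. Signal over background limits Cd55 and the dim probes.

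Scaling to the 75th percentile moved the median of all probes by 0.78 in surviving against sham and by 0.73 in dying against sham neurons. The shifts were 0.61 and 0.67 with quantile normalization and 0.52 and 0.46 with normexp. In sham against naive they were -0.29, -0.32 and -0.39. The share of called probes that were higher, 35.4% in surviving and 33.3% in dying against sham, became 74.8% and 60.2%, 58.9% and 56.1%, and 57.8% and 44.2% in that order.

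With the 75th percentile, C1s in surviving against sham turned to 0.50 and Cd47 in surviving against dying to 0.0549. In dying against sham, C3 (2.30) and Cfd (2.62) passed and Cd59 (-2.72) did not, and Serping1 passed in surviving against sham (4.65), with 2 members called there. Quantile normalization gave for the same results 0.14, 0.0351, 2.53, 3.03, -2.43, 4.58 and 2 members, and called 1 probe in sham against naive. Normexp gave 0.28, 0.24, 1.88, 2.25, -2.41, 4.05 and 2 members, and called 2090 probes between surviving and dying neurons. The deposited table gave 0.60, 0.0797, 2.38, 2.70, -2.64, 4.25 and 2 members, called 2 probes between surviving and dying neurons, and turned Serping1 there to -0.0084.

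With all spots kept, surviving minus dying turned to 0.0064 for Cd47 and -0.0815 for Serping1, and Serping1 passed in surviving against sham (3.37), with 2 members called. With only the arrays of the groups compared, Serping1 (3.82) and Cd59 (-1.13) passed in surviving against sham, with 3 members and 10455 probes called. The mean over probes turned C1s in surviving against sham to 1.15 and Cd47 in surviving against dying to 1.49, and Serping1 passed in surviving against sham (2.84, on surviving replicate 2 alone), with 2 members called. The filter on all 4 arrays left 1781 probes called in surviving and 5533 in dying against sham. By the filter adapted from the methods, 1050, 2993 and 388 probes passed between surviving and dying, dying and sham, and sham and naive neurons. The reference probes of 2, 0 and 1 members passed in surviving and dying against sham and in sham against naive. In dying against sham the other Serping1 probe passed.

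The replicate block lowered the probes called in surviving against sham to 2702 and changed no call of a member. The numbers of surviving and dying arrays deviated in opposite ways (r = -0.194 over 15250 probes, other pairs from -0.0607 to 0.0715), and the block with the numbers crossed there, added after seeing the data, called 0 probes and 0 members.

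With each array left out in turn, a group of 1 array being assumed to vary like the others, the probes called ran from 190 to 7704 in surviving against sham, from 1857 to 12788 in dying against sham and from 0 to 5386 between surviving and dying neurons, and the members from 0 to 2, 1 to 3 and 0 to 2. Surviving minus dying ran from -0.32 to 0.32 for Cd47, 0.66 to 3.98 for Cd59, -4.13 to -1.74 for Cfd and -0.22 to 0.94 for Serping1. Surviving minus sham ran from -1.26 to 0.70 for C1s, -0.15 to 1.66 for C3, -3.67 to -3.14 for Cd47, -2.23 to 0.16 for Cfd and 3.23 to 4.40 for Serping1. Dying minus sham ran from -0.0867 to 1.87 for C1s, 0.67 to 2.48 for C3, 1.17 to 2.62 for Cfd, -5.10 to -1.78 for Cd59 and 2.87 to 4.04 for Serping1.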
